A study of Mus musculus with 13 samples.

Results

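The collagen genes are the 42 protein-coding genes on mouse chromosomes 1 to 19 whose symbol has the form Col, number, a, number, out of 20807 protein-coding genes there in the GENCODE M21 annotation of the mm10 genome. Open chromatin was counted at each of them as the number of regions called by ATAC-seq, where Tn5 transposase cuts and tags accessible DNA. A region was given to a collagen gene when its strongest point (its summit) lay in the gene body or within 20 kb of it. Where 2 collagen genes were in reach, the nearer one took it. Genes other than collagens were not considered, so a region closer to one of them still counted. In the 50000 strongest regions of each of 12 libraries, which merged into 111428 consensus regions, 452 consensus regions belonged to the collagen genes. Of these, 20 lay within 1 kb of a start of another gene, 2 of them also at a start of their own gene.

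Collagens are proteins of the extracellular matrix built from 3 chains wound into a triple helix. Fibrillar collagens such as types I, II, III, V and XI form the cross-banded fibres of bone, skin, tendon and cartilage, fibril-associated collagens such as type IX decorate those fibres, and type IV forms the sheets of basement membranes. In the limb bud, condensing mesenchyme that will become cartilage switches on Col2a1, Col9a1 and Col11a1 under SOX9 and its partners SOX5 and SOX6, while Col1a1 and Col1a2 mark connective tissue and later bone.

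The study moved a distal limb enhancer, II1, from one regulatory domain of the HoxD locus on chromosome 2 into the neighbouring domain, T-DOM. ATAC-seq was done at E12.5 on the forebrain (FB) and on the distal (DFL) and proximal (PFL) parts of the forelimb of wild type (wt) and mutant II1TDOM 542 embryos, with 2 replicates in each of the 6 groups of tissue and genotype. Each replicate was a pool of several embryos, 50000 cells went into each library, and all groups had the B6CBAF1 background and no treatment. One further wt DFL library, a reanalysis of an earlier sample, was left out of the comparisons. The 542 allele comes from 1 founder line and carries a single copy of II1 with an HBB promoter and a LacZ reporter. The labels give crosses between heterozygous adults, and the study describes the mutant embryos used for ATAC-seq as homozygous for the insertion. No collagen gene lies at the insertion.

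The files listed 83029 to 115512 regions per library, and the estimated number of tags was 37.5 to 54.5 M in the 8 limb libraries and 51.4 to 70.7 M in the 4 FB libraries. Lists of equal length were therefore compared. Marker genes followed the tissue labels in part: Prrx1 and Tbx5, regulators of limb mesenchyme, had more regions in limb than in FB, with Tbx5 at 0 in every FB library, and the forebrain regulator Emx2 had fewer, while Shox2, Msx1, Pax6 and Dlx1 did not pass the test. Hoxd13 and Msx1, regulators of the distal limb, had more regions in every DFL than in every PFL library and Hoxa13 did not, whereas the proximal regulators Meis1 and Meis2 did not separate DFL from PFL and had fewer regions in limb than in FB. Of the 7 chondrogenic markers Sox6 was higher and Sox9 lower in limb, and their summed regions ranged from 48 to 61 in DFL, 45 to 52 in PFL and 49 to 56 in FB. Of 4 markers of blood and endothelium, Tal1 and Pecam1 were lower in limb and Pecam1 also lower in DFL than PFL (sums of 7 to 9 in DFL, 8 to 9 in PFL and 12 to 14 in FB). Of 3 meningeal markers Zic1 was lower (9 to 12, 8 to 11 and 12 to 15). None of the 3 muscle markers (4 to 7, 3 to 9 and 3 to 6) or 4 ectoderm markers (4 to 8, 5 to 9 and 6 to 7) passed the test, and Krt5 was at 0 in all 12 libraries. The part of these cell types in the results below was not tested, and in bulk tissue fewer cells with an open region cannot be told apart from less opening per cell.

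To show what the tissue-restricted collagen regions look like, the 200 bases centred on the summit are given for the strongest region of each pattern, all on the plus strand of GRCm38. The first was called in all 4 DFL libraries and no other (Col28a1 intron), the second in all 4 PFL libraries alone (Col11a1 intron), the third in all 8 limb libraries and no FB library (Col8a1 intron) and the fourth in all 4 FB libraries alone (Col22a1 intron), counting the 50000 strongest regions of the 12 libraries. Capitals mark exact matches, on either strand, to 7 short motifs searched for: ACAATG (SOX core), CAATAAA (posterior HOX), TAATTA (homeodomain), CAGCTG (E-box), TGACTCA (AP-1), CCGCCC (GC box) and TATAAA (core promoter box).
Col28a1 chr6:8119219-8119418: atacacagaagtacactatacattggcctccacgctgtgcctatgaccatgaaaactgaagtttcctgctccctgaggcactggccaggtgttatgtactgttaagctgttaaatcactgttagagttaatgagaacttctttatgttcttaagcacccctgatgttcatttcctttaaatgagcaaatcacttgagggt
Col11a1 chr3:114099473-114099672: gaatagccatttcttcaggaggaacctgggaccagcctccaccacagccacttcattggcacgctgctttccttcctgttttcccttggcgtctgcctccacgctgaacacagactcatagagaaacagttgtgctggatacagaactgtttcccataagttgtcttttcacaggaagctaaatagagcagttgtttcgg
Col8a1 chr16:57704968-57705167: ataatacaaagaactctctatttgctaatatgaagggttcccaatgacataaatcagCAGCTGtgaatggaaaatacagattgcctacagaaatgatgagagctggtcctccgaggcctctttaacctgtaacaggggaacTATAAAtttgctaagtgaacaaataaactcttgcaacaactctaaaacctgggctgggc
Col22a1 chr15:72018931-72019130: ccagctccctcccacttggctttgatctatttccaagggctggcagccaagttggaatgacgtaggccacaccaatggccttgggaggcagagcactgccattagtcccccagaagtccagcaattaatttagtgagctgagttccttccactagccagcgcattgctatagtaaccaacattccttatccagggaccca
The Col8a1 window held CAGCTG and TATAAA, and the other windows held none of the 7 motifs. A window of this size held CAGCTG in 20.7% and TATAAA in 12.0% of all 111428 consensus regions, so neither match is rare, and a match is a description of letters and not a site.

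Promoter sequence was sought for Col1a1, Col2a1, Col9a1 and Col11a1. RefSeq promoters on GRCm38.p6 matched 33 of the 42 genes, with no entry for Col1a1 or Col2a1. The 250 bases before the start are given for both starts of Col9a1 and for Col11a1, all on the plus strand. Col9a1 has an internal start within the gene.
Col9a1 first start chr1:24177360-24177609: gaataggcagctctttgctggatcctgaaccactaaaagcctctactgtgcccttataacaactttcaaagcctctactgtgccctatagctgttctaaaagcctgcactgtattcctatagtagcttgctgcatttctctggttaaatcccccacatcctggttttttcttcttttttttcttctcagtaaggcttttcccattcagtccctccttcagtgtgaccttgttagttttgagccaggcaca
Col9a1 internal start chr1:24194953-24195202: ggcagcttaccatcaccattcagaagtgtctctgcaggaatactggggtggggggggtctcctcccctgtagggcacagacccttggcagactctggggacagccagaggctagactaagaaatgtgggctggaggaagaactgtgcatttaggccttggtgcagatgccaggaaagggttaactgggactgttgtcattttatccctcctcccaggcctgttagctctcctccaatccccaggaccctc
Col11a1 chr3:114030290-114030539: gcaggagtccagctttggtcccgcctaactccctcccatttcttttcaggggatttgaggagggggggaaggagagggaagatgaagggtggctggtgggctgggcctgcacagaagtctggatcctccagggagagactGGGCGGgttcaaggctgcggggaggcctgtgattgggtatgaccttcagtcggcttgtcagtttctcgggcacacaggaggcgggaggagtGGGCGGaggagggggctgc
The Col11a1 promoter held the GC box at 2 places, printed as GGGCGG because the match lies on the opposite strand, a motif that 32.7% of 32851 promoters of the same length hold. Neither Col9a1 promoter held any of the 7 motifs. The matches shown did not overlap one another.

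Collagen genes held more open regions in limb than in forebrain, and more in proximal than in distal forelimb. In the order wt replicate 1, wt replicate 2, 542 replicate 1 and 542 replicate 2, which is kept throughout, the 42 genes together had 215, 211, 204 and 200 of the 50000 strongest regions in DFL, 239, 245, 234 and 234 in PFL, while FB had 150, 148, 143 and 152. The tissues did not overlap, with means of 207.5 ± 6.76 (SD, n = 4) in DFL, 238.0 ± 5.23 (SD, n = 4) in PFL and 148.2 ± 3.86 (SD, n = 4) in FB, and the additional wt DFL library had 223. As a share of all regions listed at any strength, the collagen genes took 0.400% ± 0.011 (SD, n = 4) in DFL, 0.466% ± 0.020 (SD, n = 4) in PFL and 0.317% ± 0.0087 (SD, n = 4) in FB, so the order was the same. No p-value is given for this sum because the genes were chosen as a list.

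**Figure D1:**
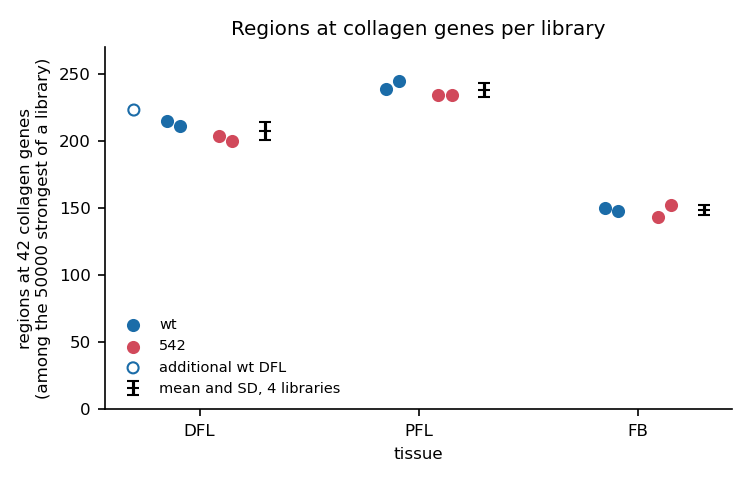
Number of the 50000 strongest ATAC-seq regions at the 42 collagen genes in each library (vertical axis) by tissue and genotype (horizontal axis), 1 symbol per library. The 4 DFL libraries sit between 200 and 215, the 4 PFL libraries between 234 and 245 and the 4 FB libraries between 143 and 152.

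Long genes had room for more regions. Over the 42 genes the mean number of regions of the 12 libraries went with gene length (Pearson's r = 0.725, Spearman's rho = 0.616, across genes, which are not independent replicates and share their libraries). The 5 genes with most regions were Col25a1 (mean 12.75), Col19a1 (10.75), Col8a1 (9.33), Col28a1 (8.58) and Col14a1 (8.50). Per 100 kb of gene and window the order differed: Col9a3 had 7.38 and Col2a1 7.24 regions per 100 kb, against 2.51 for Col25a1. No gene was without a region in all 12 libraries, and the lowest was Col6a5, a type VI chain, with a mean of 0.333. Of the 452 regions, 307 (67.9%) lay in introns, 51 downstream, 49 upstream, 39 within 1 kb of a start of their own gene, 4 in coding exons and 2 in UTRs.

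**Figure D2:**
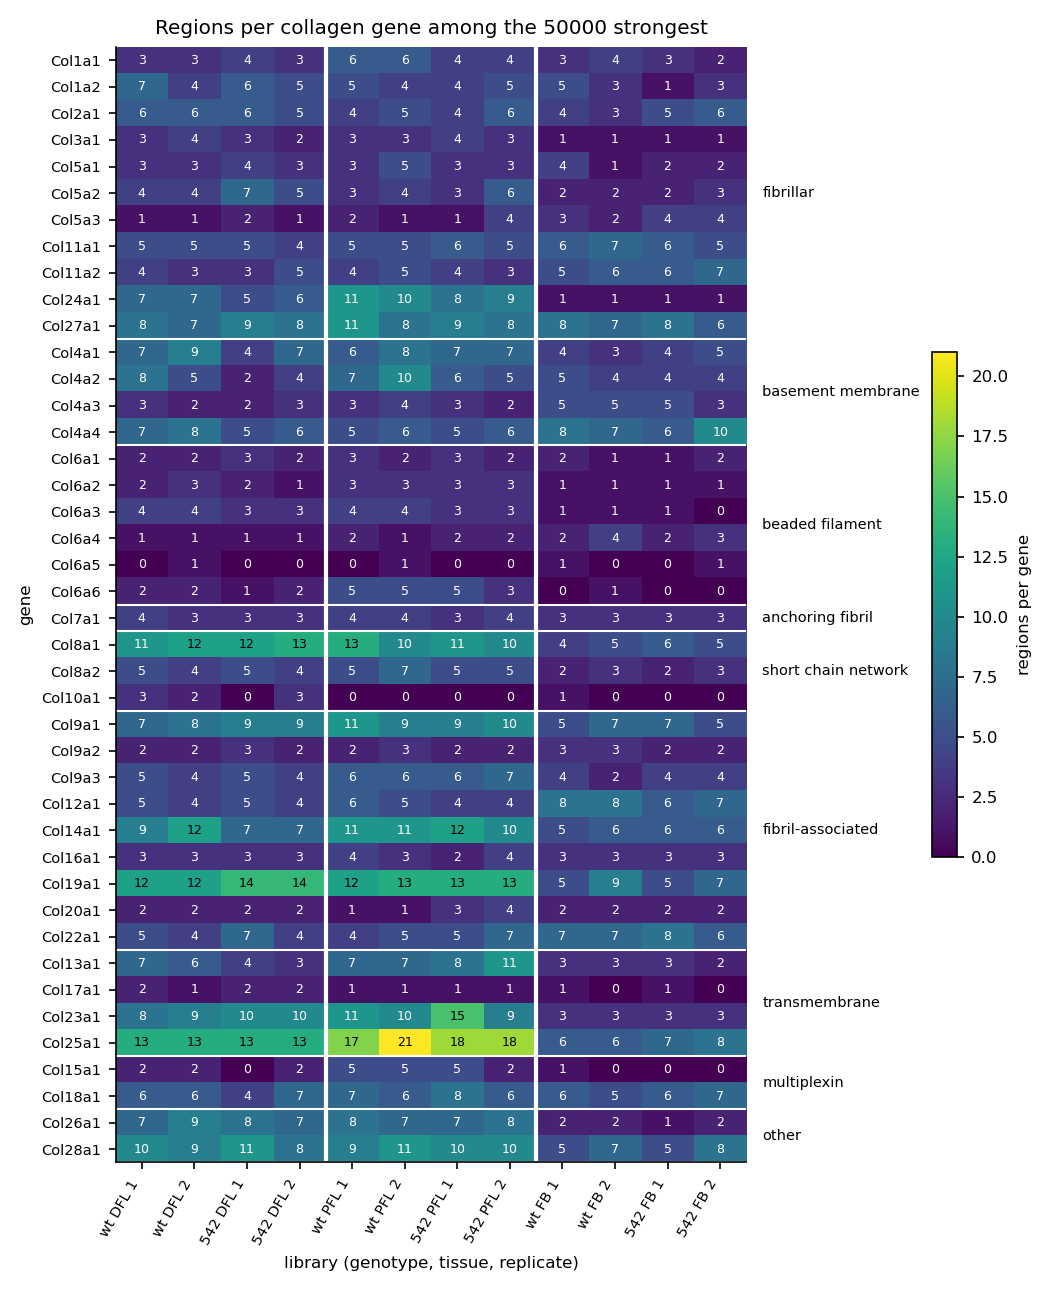
Number of regions at each of the 42 collagen genes (rows, grouped by role) in each of the 12 libraries (columns), from the 50000 strongest regions of each library, with the number printed in each cell and darker shades for lower numbers. The FB columns are darker than the limb columns for Col8a1, Col19a1, Col23a1, Col24a1, Col25a1 and Col26a1, whose limb means ran from 7.62 to 15.8 and whose FB means ran from 1 to 6.75.

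The comparison of limb with forebrain asked which collagen genes carried open chromatin in limb cells. The widest gaps were at Col25a1, Col23a1, Col24a1, Col8a1 and Col19a1, which had 6.375 to 9 more regions in limb. By a two-sided exact permutation test of 8 limb against 4 FB libraries, adjusted with Benjamini-Hochberg over 18104 genes with a region, 11 of the 42 collagen genes (26.2%) had more regions in limb and 2 (4.76%) had fewer, against 5.86% and 7.79% of all genes tested. Among the 12509 genes with a mean of 2 or more regions, a set chosen after seeing the data, the shares of all genes were 7.03% and 8.83%, and 11 and 2 of 38 collagen genes were called. The median difference between limb and FB was 1.375 regions over the 42 genes and 0 over all genes.

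Among the 11 fibrillar collagens, Col3a1 and Col24a1 were higher in limb and Col11a2 lower, and 8 did not pass the test. Col24a1, a minor fibrillar collagen of developing bone, had 7, 7, 5 and 6 regions in DFL, 11, 10, 8 and 9 in PFL, against 1 in each FB library. Every limb library exceeded every FB library, with means of 7.88 ± 2.03 (SD, n = 8) and 1 ± 0 (SD, n = 4). The adjusted exact permutation p of 0.0193 was the smallest that any gene reached. Col3a1, the type III chain of skin and vessel walls, had 3, 4, 3 and 2 regions in DFL, 3, 3, 4 and 3 in PFL, against 1 in each FB library (difference 2.125, adjusted exact permutation p = 0.0193). In both genes the single FB region stood against several limb regions in every library. Col11a2, a type XI chain of cartilage fibrils, went the other way, with 4, 3, 3 and 5 regions in DFL, 4, 5, 4 and 3 in PFL, against 5, 6, 6 and 7 in FB. Its groups met at 5, with means of 3.88 ± 0.835 (SD, n = 8) in limb and 6.0 ± 0.816 (SD, n = 4) in FB (adjusted exact permutation p = 0.0444).

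Among the 50000 strongest regions Col1a1, Col2a1 and Col11a1, fibrillar collagens best known from bone and cartilage, did not pass this test. Col1a1, the main chain of bone and tendon, had 3, 3, 4 and 3 regions in DFL, 6, 6, 4 and 4 in PFL, against 3, 4, 3 and 2 in FB (difference 1.125, adjusted exact permutation p = 0.480). Col1a1 did pass with the 20000 strongest regions (difference 2.0, adjusted exact permutation p = 0.0270) and with summits counted in place of regions (difference 1.5, adjusted exact permutation p = 0.0476). Col2a1, the main chain of cartilage, had 6, 6, 6 and 5 regions in DFL, 4, 5, 4 and 6 in PFL, against 4, 3, 5 and 6 in FB (difference 0.75, adjusted exact permutation p = 0.737). The limb and FB libraries overlapped for both. With all deposited regions the difference at Col1a1 was -0.75 (adjusted exact permutation p = 0.8435). There the difference at Col2a1 was -1.25 (adjusted exact permutation p = 0.5882), so neither gene kept its direction. Col11a1, which pairs with Col2a1 in cartilage fibrils, had 5, 5, 5 and 4 regions in DFL, 5, 5, 6 and 5 in PFL, against 6, 7, 6 and 5 in FB (difference -1.0, adjusted exact permutation p = 0.175). Over the 8 collagens of cartilage, which cross the other classes, the sums were 37 to 40 in DFL, 40 to 43 in PFL and 35 to 38 in FB, with Col9a1 higher in limb, Col11a2 lower and 6 not called.

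In the short-chain network collagens summed regions were 17 to 20 in DFL, 15 to 18 in PFL and 7 to 8 in FB, and 2 of 3 genes were called, both higher in limb. Col8a1, a chain of the lattice under endothelia, had 11, 12, 12 and 13 regions in DFL, 13, 10, 11 and 10 in PFL, against 4, 5, 6 and 5 in FB. The groups were apart by 4 regions, at means of 11.5 ± 1.2 (SD, n = 8) and 5.0 ± 0.816 (SD, n = 4), with an adjusted exact permutation p of 0.0193, but the additional wt DFL library had 6, the highest FB value. Its partner Col8a2 had 5, 4, 5 and 4 regions in DFL, 5, 7, 5 and 5 in PFL, against 2, 3, 2 and 3 in FB (difference 2.5, adjusted exact permutation p = 0.0193). Col10a1, the product of hypertrophic cartilage cells, had 3, 2, 0 and 3 regions in DFL, 0 in each PFL library and 1, 0, 0 and 0 in FB, and was not called.

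Transmembrane collagens, which span the cell membrane and shed their helical part, summed to 28 to 30 regions in DFL, 36 to 42 in PFL and 12 to 14 in FB, and 2 of 4 were higher in limb. Col25a1, needed for motor axons to reach muscle, had 13 regions in each DFL library, 17, 21, 18 and 18 in PFL, against 6, 6, 7 and 8 in FB. The 3 tissues did not overlap, and limb and FB means were 15.8 ± 3.15 (SD, n = 8) and 6.75 ± 0.957 (SD, n = 4; adjusted exact permutation p = 0.0193). Col23a1 had 8, 9, 10 and 10 regions in DFL, 11, 10, 15 and 9 in PFL, against 3 in each FB library, a difference of 7.25 (adjusted exact permutation p = 0.0193). Col13a1, found at neuromuscular junctions, and Col17a1, a hemidesmosome protein of skin, were not called.

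Of the 9 fibril-associated collagens, Col9a1 and Col19a1 were higher in limb, Col12a1 was lower and 6 were not called. Col9a1, which coats the type II fibrils of cartilage, had 7, 8, 9 and 9 regions in DFL, 11, 9, 9 and 10 in PFL, against 5, 7, 7 and 5 in FB (means 9.0 ± 1.2 (SD, n = 8) and 6.0 ± 1.15 (SD, n = 4), adjusted exact permutation p = 0.0444). Col19a1 had 12, 12, 14 and 14 regions in DFL, 12, 13, 13 and 13 in PFL, against 5, 9, 5 and 7 in FB (difference 6.375, adjusted exact permutation p = 0.0193). The additional wt DFL library had 6 regions at Col19a1, within the FB range. These 2 genes are neighbours on chromosome 1, with ends 9205 bp apart, so regions between them were given to the nearer gene. Col12a1, a collagen of tendon and ligament, had 5, 4, 5 and 4 regions in DFL, 6, 5, 4 and 4 in PFL, against 8, 8, 6 and 7 in FB (difference -2.625, adjusted exact permutation p = 0.0331). Only the value of 6 was shared by limb and FB libraries. Col14a1, a fibril-associated collagen of tendon and skin and among the 5 genes with most regions, had 9, 12, 7 and 7 regions in DFL, 11, 11, 12 and 10 in PFL, against 5, 6, 6 and 6 in FB, and was not called (adjusted exact permutation p = 0.0542).

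In the 2 remaining genes, which form no class of their own, the limb excess was also called. Col26a1 had 7, 9, 8 and 7 regions in DFL, 8, 7, 7 and 8 in PFL, against 2, 2, 1 and 2 in FB (difference 5.875, adjusted exact permutation p = 0.0193). Col28a1, a collagen with von Willebrand domains found around nerves, had 10, 9, 11 and 8 regions in DFL, 9, 11, 10 and 10 in PFL, against 5, 7, 5 and 8 in FB (difference 3.5, adjusted exact permutation p = 0.0331). Limb and FB libraries of Col26a1 lay apart, whereas those of Col28a1 met at 8. Among the 6 beaded filament collagens, only Col6a3 was called, with 4, 4, 3 and 3 regions in DFL, 4, 4, 3 and 3 in PFL, against 1, 1, 1 and 0 in FB (difference 2.75, adjusted exact permutation p = 0.0193). The 4 type IV basement membrane chains (sums 13 to 25, 20 to 28 and 19 to 22), the multiplexins Col15a1 and Col18a1 (4 to 9, 8 to 13 and 5 to 7) and the anchoring fibril collagen Col7a1 (3 to 4, 3 to 4 and 3) were not called.

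**Figure D3:**
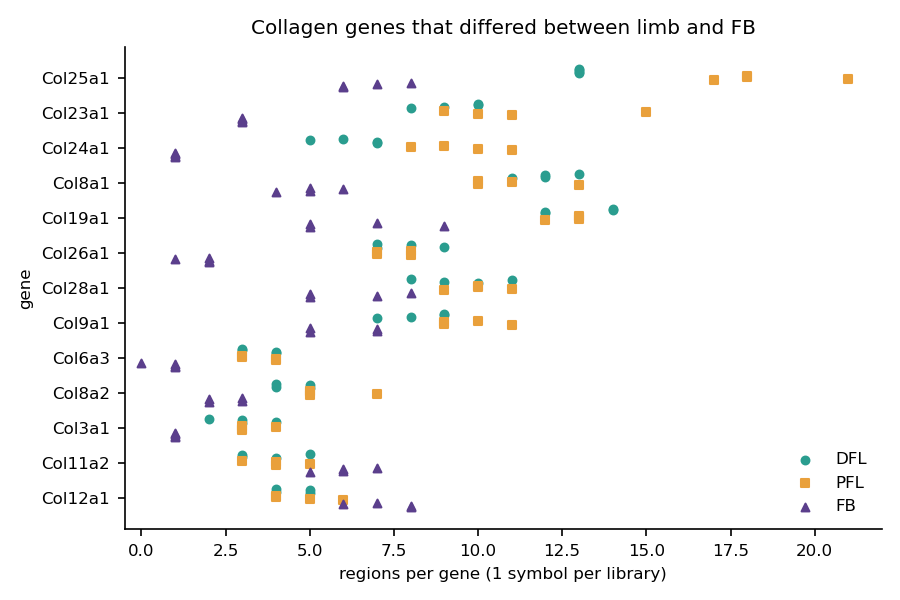
Number of regions (horizontal axis) at the 13 collagen genes that differed between limb and FB (vertical axis), 1 symbol per library, with colour and shape giving the tissue. FB symbols lie left of all limb symbols for 9 genes, meet the limb symbols for Col9a1 and Col28a1, and lie mostly to the right for Col11a2 and Col12a1.

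Which genes were called depended on how many regions were kept. With all deposited regions, 11 genes were again higher, against 4.57% of all genes. Of these, 7 were in the list above, and the call at Col25a1 was lost (adjusted exact permutation p = 0.254). With the 20000 strongest, 10 were higher, against 3.81% of all genes. Of these only Col25a1 and Col28a1 were in the list above, and Col11a1 turned to 1.875 more regions in limb (adjusted exact permutation p = 0.0270). Col1a2, partner of Col1a1 and picked out after its values were seen, had 7, 4, 6, 5, 5, 4, 4 and 5 of the 50000 strongest regions in the limb libraries and 5, 3, 1 and 3 in FB, but 9, 6, 10, 6, 7, 5, 6 and 5 of all regions in limb and 15, 16, 11 and 13 in FB. Col1a2 was called higher in limb with the 20000 strongest, with a window of 50 kb and with summits, and lower with all deposited regions. The calls at Col11a2 and Col12a1 were lost with all deposited regions, with the 20000 strongest, with a window of 50 kb and with summits. The call at Col11a2 was also lost with a window of 5 kb, where its difference was -0.5 (adjusted exact permutation p = 0.6251).

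Between the distal and the proximal forelimb, the genes whose libraries did not overlap changed with the list used. Among the 50000 strongest regions no collagen gene had more regions in every DFL than in every PFL library, and 4 of 42 had fewer, against 2.36% and 2.09% of the 17829 genes with a region in limb and 2.42% and 2.1% of those with a mean of 2 or more regions, of which 0 and 4 of 38 were collagen genes called. With 4 against 4 libraries the exact permutation test cannot pass adjustment, as its smallest p is 0.0286 and the smallest adjusted p was 0.642, so these are counts of groups that did not overlap. Col25a1 had 13 regions in each DFL library and 17 to 21 in PFL, a difference of -5.5. Col24a1 had 5 to 7 in DFL and 8 to 11 in PFL, and Col9a3, a type IX chain of cartilage, had 5, 4, 5 and 4 in DFL and 6, 6, 6 and 7 in PFL. Col6a6, a type VI chain, had 2, 2, 1 and 2 in DFL, 5, 5, 5 and 3 in PFL, against 0, 1, 0 and 0 in FB. At Col9a3, Col24a1 and Col25a1 the lower count in DFL did not hold in the 20000 strongest regions, where DFL was higher by 0.25, 0.25 and 0.75 regions, and at Col6a6 the groups overlapped there (difference -0.25). With all deposited regions none of the 4 genes had groups that lay apart, while Col6a2 and Col10a1 were higher and Col15a1 lower in every DFL library. The additional wt DFL library had 10 regions at Col24a1, within the PFL range.

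The 542 allele was compared with wild type within each tissue, to see whether collagen genes on other chromosomes or far from the insertion differed. In the exact permutation test within tissues, 0 of 18104 genes were called in either direction after Benjamini-Hochberg adjustment (0% of all genes). With 216 assignments the smallest p of this test is 0.00926, so a call would need a large share of all genes at that p. The 0 calls thus do not show that the genotypes were alike. Without adjustment, 2 collagen genes and 278 genes in all had an exact permutation p under 0.05. Those 2 were Col4a2, a basement membrane chain, and Col6a3, with mean differences of -2.33 and -0.833 regions in 542 (unadjusted exact permutation p = 0.0278 for each). Col4a2 had 8 and 5 regions in wt DFL and 2 and 4 in 542 DFL, 7 and 10 in wt PFL and 6 and 5 in 542 PFL, and 5 and 4 in wt FB and 4 and 4 in 542 FB. In limb, where Col4a2 differed most, the 542 libraries were also the shallower, at 37.5 to 41.4 M tags against 44.1 to 54.5 M, and the part of depth was not tested.

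Presence in the lists gave a view of single regions. Of the 452 collagen regions, 6 were called in all DFL libraries alone, 8 in all PFL libraries alone, 30 in all 8 limb libraries and no FB library, 16 in all FB libraries alone and 60 in all 12 libraries. Over all consensus regions the shares were 1.91%, 1.82%, 4.81%, 8.82% and 17.1%, and over collagen regions 1.33%, 1.77%, 6.64%, 3.54% and 13.3%. The limb share was thus above and the forebrain share below that of all regions, with no test. Regions called in all 12 libraries were often gene starts (26.7%), against 10% of the limb regions, and none of the 6 DFL or 16 FB regions lay within 1 kb of a start of their own gene. The additional wt DFL library held 4 of the 6 DFL regions, 3 of the 8 PFL regions, 29 of the 30 limb regions and 0 of the 16 FB regions.

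The Col28a1 intron region at chr6:8119080-8119828 had a fold enrichment over the local background of 9.53, 10.6, 11.7 and 12.0 in DFL. Next among the DFL regions came a Col19a1 intron at chr1:24396747-24397658 with 6.15, 7.0, 8.99 and 10.5, and a Col26a1 intron at chr5:136770916-136771979 with 6.44, 6.67, 8.97 and 5.97. All 3 were also in the additional wt DFL library. The strongest PFL region, in the Col11a1 intron at chr3:114099015-114099930, had 9.39, 9.26, 9.70 and 11 in PFL and also 13.5 in the additional wt DFL library, which goes against its pattern. The next 2 PFL regions by mean fold lay in Col25a1 introns, at chr3:130450608-130451479 with 9.01, 7.54, 7.13 and 5.59 and at chr3:130147762-130148412 with 5.08, 7.41, 5.94 and 6.73. Neither was in the additional library.

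Of the limb regions, the strongest was in the Col8a1 intron at chr16:57704441-57705615, with 11.7, 11, 10.8 and 10.9 in DFL and 9.10, 9.73, 8.0 and 7.61 in PFL. A region upstream of Col25a1 at chr3:130127504-130128328 had 6.64, 8.58, 10.0 and 11.7 in DFL and a mean of 9.53 over the 8 limb libraries. A Col28a1 intron at chr6:8101165-8101968 had 7.18, 7.35, 6.64 and 9.25 in DFL and 9.55, 10.5, 14 and 11.2 in PFL. Every DFL value lay above every PFL value at the first of these and below at the third.

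Of the FB regions, a Col22a1 intron at chr15:72018655-72019358 had 10.3, 13.3, 13.9 and 12.54, Col22a1 being a collagen of tissue junctions such as that of muscle and tendon. A UTR of Col4a4, a basement membrane chain, held a region at chr1:82451694-82452837 with 12.46, 11.8, 12.8 and 12.7. The third lay upstream of Col14a1 at chr15:55302219-55302976, with 9.24, 10.6, 12.55 and 9.74. The Col4a4 region was present in limb too, but at folds of 3.18 to 4.75, below the 50000 strongest.

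Of the 16 FB collagen regions 4 held TAATTA, the homeodomain core, in the 200 bases at their summits (25%), as did 26.2% of all 9824 FB regions, 10.0% of all consensus regions and 5.09% of collagen regions. CAGCTG was in 7 of 30 limb collagen regions (23.3%), 24.5% of all limb regions, 20.7% of all consensus regions and 19.5% of collagen regions. Over all 452 collagen regions, ACAATG was in 8.85% against 10.7% of all consensus regions, CAATAAA in 3.10% against 4.67%, TGACTCA in 5.53% against 4.0%, CCGCCC in 12.2% against 13.5% and TATAAA in 14.4% against 12.0%. These shares carry no test.

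More collagen genes had an open start in limb than in forebrain. Within 1 kb of a start, 29 to 31 of the 42 genes (69.0% to 73.8%) had a region in each limb library and 20 to 25 (47.6% to 59.5%) in each FB library, against 62.0% to 63.6% and 61.8% to 62.4% of 20722 protein-coding genes. With all deposited regions the counts were 35 to 38 and 30 to 31 collagen genes (83.3% to 90.5% and 71.4% to 73.8%), against 66.3% to 68.5% and 66.2% to 67.3% of all genes, and none of these shares was tested. The start was open in all 12 libraries at 17 genes (40.5%), against 56.9% of all genes. It was open in none at 6 (14.3%: Col6a4, Col6a5, Col7a1, Col17a1, Col20a1 and Col28a1), against 32.0%. With all deposited regions these were 26 (61.9%) and 2 genes (4.76%: Col7a1 and Col20a1), against 61.5% and 26.2% of all genes. Among the 50000 strongest regions the start was open in all 8 limb libraries and no FB library at Col3a1, Col9a2 and Col13a1. No collagen gene had the opposite pattern, and the shares of all genes were 0.492% and 0.396%. With all deposited regions, Col9a2 and Col13a1 also had a start region in every FB library, at 2.95 to 3.92 and 2.70 to 4.79 fold, whereas Col3a1 still had none. The Col3a1 start had a fold of 5.95, 6.41, 6.02 and 7.04 in DFL and 8.80, 7.41, 6.52 and 6.54 in PFL.

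Of the marker genes, Col11a1 was the most open at its start, chr3:114029935-114030821, with 14.5, 14.4, 13.5 and 14.3 fold in DFL, 14.3, 13.7, 16.2 and 16.6 in PFL, against 16.6, 17.1, 17.3 and 16.9 in FB. Col1a1, at chr11:94936761-94937775 with the summit 877 bp from the start, had 10.1, 11.3, 10.2 and 10.1 in DFL, 9.15, 8.59, 10.1 and 11.1 in PFL, against 8.61, 8.55, 8.02 and 7.60 in FB. Col2a1, at chr15:98004227-98005131, had 4.81, 6.98, 5.21 and 5.08 in DFL, 5.53, 5.62, 6.10 and 4.78 in PFL, against 4.44, 3.44, 3.94 and 3.53 in FB. FB libraries were thus the lowest at Col2a1 and the highest or level with the highest at Col11a1. The first start of Col9a1, at chr1:24177215-24177780, had 6.75, 6.16, 6.02 and 5.13 fold in PFL, 3.81, 2.45 and 3.21 in wt DFL 1, wt DFL 2 and 542 DFL 2, and was not called in 542 DFL 1 or in FB, while the additional wt DFL library had 7.75. This start is the first of the Col9a1 promoter sequences printed above.

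**Figure D4:**
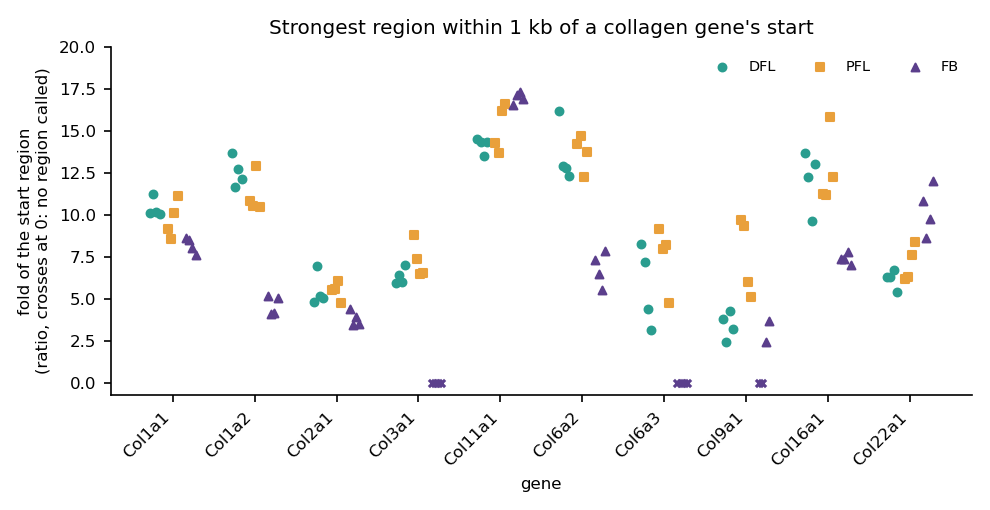
Fold enrichment over background of the strongest region within 1 kb of a start (vertical axis) at 10 collagen genes (horizontal axis), 1 symbol per library by tissue, with a cross at 0 for a library in which none was called among all deposited regions, both starts of Col9a1 being pooled. Col11a1 lies at 13.5 to 17.3 in all libraries, and Col3a1 has values in the 8 limb libraries alone. At Col9a1 the wt PFL symbols at 9.73 and 9.37 are the region that covers the internal start. In the other libraries its summit lay beyond 1 kb and other regions are shown, so the tissues cannot be compared there.

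Regions called in all 12 libraries, which have a value everywhere, were compared by their fold. With limma on log2 fold centred on each library's median, 41 of 107 collagen regions were higher in limb than FB and 13 lower at an adjusted p under 0.05, against 23.8% and 16.1% of 27599 regions. The median difference was 0.13 on the log2 scale for collagen regions and 0.03 for all regions. Without centring, which moved the median of all regions to -0.15, 27 were higher and 31 lower, against 3638 and 10838 of all 27599 regions. With quantile normalization the split was 32 and 14, against 5123 and 5218 of all regions. Each of the 54 regions kept its direction in both settings.

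Fibrillar and cartilage genes were among the largest differences. The Col1a2 start, chr6:4504737-4506550, had 13.7, 11.7, 12.8 and 12.1 fold in DFL, 10.8, 10.6, 12.9 and 10.5 in PFL, against 5.17, 4.11, 4.2 and 5.06 in FB, a log2 difference of 1.54 ± 0.10 (SE; limma adjusted p = 7.16e-08). A second Col1a2 region, 15205 bp upstream at chr6:4488947-4490378, had 7.51 to 10.3 fold in limb and 3.59 to 4.18 in FB (1.40 ± 0.12 (SE), limma adjusted p = 4.95e-07). A Col9a1 region that covers the internal start, chr1:24194902-24196940, had 11, 11.4, 10.9 and 12.3 in DFL, 9.73, 9.37, 11.4 and 10.4 in PFL, against 4.22, 4.51, 4.79 and 4.88 in FB (1.41 ± 0.094 (SE), limma adjusted p = 8.72e-08). All 3 regions of these 2 genes were above FB in every limb library. The strongest summit of this Col9a1 region lay 1091 bp from the internal start, beyond the 1 kb used for start regions. The promoter of that start is printed above. The Col6a2 start, chr10:76622893-76623952, had 12.3 to 16.2 fold in limb and 5.57 to 7.85 in FB (1.18 ± 0.10 (SE), limma adjusted p = 5.90e-07), Col6a2 being a chain of the type VI filaments around cells.

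The gene Col4a4 held both the largest positive and the largest negative difference of the called regions. Its intron region chr1:82476220-82477373 had 10.9, 9.69, 13 and 10.2 in DFL, 14.1, 13.2, 15.2 and 12.4 in PFL, against 4.70, 3.74, 3.67 and 4.23 in FB (1.76 ± 0.11 (SE), limma adjusted p = 3.56e-08). Its UTR region chr1:82451694-82453820 had 3.18 to 4.75 in limb and 11.8 to 12.8 in FB (-1.44 ± 0.12 (SE), limma adjusted p = 6.95e-07). An intron of Col3a1, chr1:45313617-45314338, 2616 bp from the start, had 4.90 to 6.18 in limb and 12.6, 14.5, 11.8 and 11.2 in FB (-0.98 ± 0.11 (SE), limma adjusted p = 1.10e-05). This was so although the Col3a1 start was called in limb libraries alone.

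The other regions lower in limb were smaller in size of difference. A Col23a1 intron, chr11:51539280-51540062, had 6.48 to 8.96 fold in limb and 12.53 to 13.85 in FB (-0.51 ± 0.086 (SE), limma adjusted p = 0.000289). A Col9a1 intron, chr1:24239357-24241212, had 3.37 to 6.69 in limb and 9.18 to 11.3 in FB (-0.81 ± 0.16 (SE), limma adjusted p = 0.000888). A region upstream of Col9a1, chr1:24171271-24171849, had 5.21 to 9.59 in limb and 8.99 to 14.6 in FB (-0.54 ± 0.11 (SE), limma adjusted p = 0.00115), and its call was lost without replicate 2 (limma adjusted p = 0.165) and with the mean of the summits (-0.28, limma adjusted p = 0.291). Single genes thus held regions of both directions, as Col9a1 did.

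**Figure D5:**
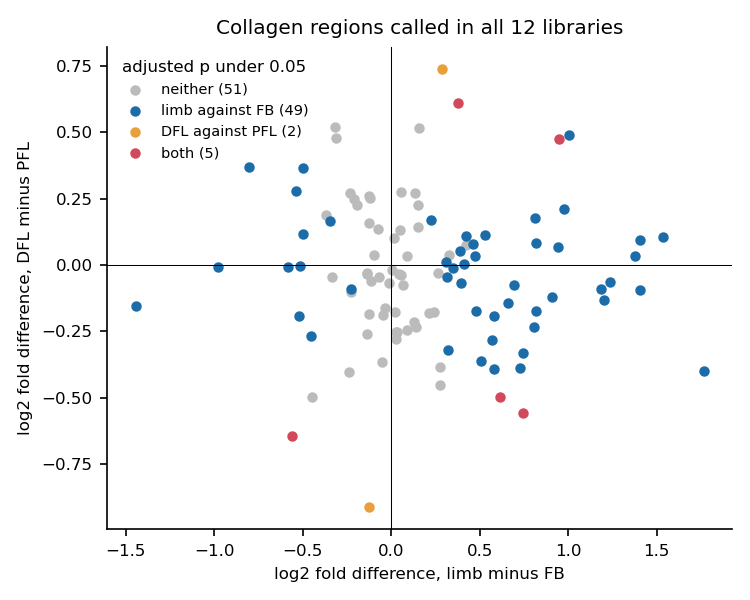
Log2 difference in fold between limb and FB (horizontal axis) and between DFL and PFL (vertical axis) for the 107 collagen regions called in all 12 libraries, 1 symbol per region coloured by whether limma called it. Limb and FB differed at 49 regions, DFL and PFL at 2, both at 5 and neither at 51.

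Between DFL and PFL the shares were near the background: 3 of 107 regions were higher in DFL and 4 lower, against 3.89% and 3.45% of all 27599. Higher in DFL were an intron of Col8a2 (0.61 ± 0.14 (SE), limma adjusted p = 0.0166), a region downstream of Col12a1 (0.74 ± 0.18 (SE), limma adjusted p = 0.0242) and a Col8a1 intron (0.47 ± 0.12 (SE), limma adjusted p = 0.0318). Lower were an intron of Col27a1, a cartilage collagen (-0.50 ± 0.10 (SE), limma adjusted p = 0.00809), a Col28a1 intron 1690 bp from the start (-0.91 ± 0.20 (SE), limma adjusted p = 0.0133), a region downstream of Col14a1 (-0.64 ± 0.17 (SE), limma adjusted p = 0.0295) and a Col26a1 intron (-0.56 ± 0.16 (SE), limma adjusted p = 0.0486). The Col8a1 intron, chr16:57694285-57695329, had 11.2, 11.7, 13 and 11.3 fold in DFL and 9.30, 8.48, 6.68 and 8.13 in PFL, with no overlap. The Col28a1 region had 6.65, 3.5, 3.13 and 2.83 in DFL and 6.57, 7.28, 6.04 and 7.47 in PFL, where wt DFL 1 stood with the PFL libraries. Without replicate 1 limma called 0 of the 107 regions (8 at an unadjusted p under 0.05), against 21 higher and 6 lower of all 27599. Without replicate 2 limma also called 0 of the 107 (17 at an unadjusted p under 0.05), against 0 of all regions in either direction. Few regions of any kind were thus called in these settings.

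In 542 against wt, limma called 0 of the 107 collagen regions, with 12 at an unadjusted p under 0.05 and a smallest adjusted p of 0.131, against 0.446% of all regions higher and 0.261% lower. The difference between genotypes in the limb and FB contrast was called at 0 of 107 (9 at an unadjusted p under 0.05 in limma), as was that in the DFL and PFL contrast (4 at an unadjusted p under 0.05).

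Several collagen genes are neighbours and share surroundings. Col4a1 and Col4a2 lie head to head with starts that overlap by a gap of -22 bp, and Col4a3 and Col4a4 lie 71 bp apart. In the counts of regions per gene a start region of such a pair was given to the nearer gene alone, whereas the counts of open starts gave it to both genes. Col3a1 and Col5a2 are 24614 bp apart, Col6a6 and Col6a5 27917 bp, and Col6a5 and Col6a4 28810 bp. In FB, Col3a1 had 1 region in each library and Col5a2, a chain that regulates fibril width, had 2, 2, 2 and 3, against 2 to 4 and 3 to 7 in limb.

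Beyond the collagens themselves, 32 genes of collagen modification, folding, trimming and crosslinking were counted. Of these, 3 had more regions in limb and 1 fewer, against 5.86% and 7.79% of all genes tested. The counts are small and were not tested against those shares. Sums were 110 to 121 in DFL, 117 to 134 in PFL and 108 to 123 in FB. Plod2, which hydroxylates lysines for crosslinks, had means of 5.50 in DFL, 7.75 in PFL, against 1.75 in FB. Ppib, a folding helper of the endoplasmic reticulum, had 3 in every limb and 2 in every FB library, and Pcolce, which speeds trimming of the procollagen end, had 3.25, 3.25 and 2. Tll2, a trimming protease related to Bmp1, went the other way at 3, 4.5 and 9. The other 28 genes, Lox, Serpinh1 and Sparc among them, did not pass the test.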

How the data were processed

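ATAC-seq region lists of 13 libraries were used, 12 of them in comparisons. Per the labels and the study's methods, the authors trimmed reads (cutadapt), mapped wt reads to mm10 and 542 reads to a mutant genome with Bowtie, removed duplicates (Picard) and called regions per library with MACS2. The deposited columns hold the fold enrichment at the summit (a ratio to the local background), the −log10 p-value and −log10 q-value, and a score derived from the latter. They hold no counts, so depth was estimated from summit heights: MACS2 gave whole tags, to a tolerance of 0.001, at 99.9975% or more of summits in every library.

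Summits sharing start and end were 1 region, represented by the strongest. In 542 lists 4218 bp was subtracted from chromosome 2 positions beyond the insertion; Col9a3 summits then lay within 9.5 bp of those of wt. Regions were ranked by −log10 q-value. Counts per gene were compared by two-sided exact permutation tests (495 assignments for limb against FB, 70 for DFL against PFL, 216 for 542 against wt within tissues) and called at a Benjamini-Hochberg adjusted p under 0.05. Log2 folds were compared with limma 3.58.1 in R 4.3.3 with 1 mean per group, other steps with Python 3.11.15, numpy 2.4.6, pandas 2.3.3 and scipy 1.17.1. The tests were checked on simulated data. Replicates were separate pools of embryos, with 2 replicates per group. In limma, p-values measure the spread between pools of the same group. The limb against FB permutation test exchanged all 12 libraries without blocks. Its spread, and the SD of the 8 limb libraries, thus also hold differences between DFL and PFL and between genotypes. The SDs of 4 libraries hold those between genotypes too. Differences in log2 fold between replicates 1 and 2 did not go together across groups (correlations of -0.0337 to 0.0176 over 15 pairs of groups). This cannot tell whether tissues with the same replicate number came from the same embryos. The main tests did not pair libraries. Genes with values in the text were Col1a1, Col2a1, Col9a1, Col11a1, all called genes, the 5 with most regions and neighbouring genes, and regions were the strongest at these starts, the 3 highest of each pattern and up to 5 per direction in limma. Other collagen genes given with values (Col1a2, Col9a2, Col10a1, Col13a1, Col15a1 and Col20a1 among them) were picked after their values were seen. The members, gene lists and this rule were chosen with earlier results of these data known. The result of 1 gene of the marker lists is not reported here.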

Additional observations from a re-analysis of the deposited data

Results flagged for a closer look

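These results stood out by rules applied to each collagen gene. At Col15a1, a basement membrane multiplexin, 542 PFL replicate 2 had 2 regions where the other 3 PFL libraries had 5 each, beyond Dixon's critical value. 32 counts with a range of at least 3 were examined. The critical value is set to mark about 1 in 20 groups of normal values by chance, and the rate for small whole counts was not tested. A group of 3 tied counts and 1 other, as here, always exceeds it. At Col13a1, the 542 libraries had fewer regions than wt in DFL (mean difference -3.0, from 7 and 6 to 4 and 3) and more in PFL (2.5, from 7 and 7 to 8 and 11), a difference of -5.5 that was not tested. At Col20a1, a fibril-associated collagen, wt DFL libraries had 2 and 2 regions against 1 and 1 in PFL (difference 1.0), whereas 542 DFL libraries had 2 and 2 against 3 and 4 (difference -1.5), and this difference between genotypes was not tested either. Of the 8 regions called in the 4 PFL libraries alone, 3 were also called in the additional wt DFL library, which was in no comparison and was the deepest at an estimated 78.0 M tags.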

How the results depend on the processing

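Of the named results, 345 recomputed values kept their side of the threshold, with the same direction or a difference of 0. A further 77 kept direction but lost the call, and 10 gained one. Another 11, called in neither setting, changed direction, and 5 with a call in 1 of the settings reversed. Among the 11, for limb against FB, were Col1a1 and Col2a1 with all deposited regions and Col11a1 with summits (difference 2.0). With the 20000 strongest regions the reversals were, for limb against FB, Col11a1 at 1.875 (adjusted exact permutation p = 0.0270) and Col12a1 at 0.625, and, for DFL against PFL, Col9a3 at 0.25, Col24a1 at 0.25 and Col25a1 at 0.75. The cause was not tested.

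For limb against FB the number of genes lower was 0 with the 20000 strongest (4.38% of all genes) and 1 with a window of 5 kb (5.55%). It was 1 with the genotype block (6.84%) and 0 by groups that do not overlap (6.32%). With the window of 5 kb and with the genotype block the gene lower was Col12a1, and the call at Col11a2 was lost. With all deposited regions, a window of 50 kb or summits, 2, 2 and 3 genes were lower, none of them Col11a2 or Col12a1. The shares of all genes were 5.07%, 10.8% and 7.2%. A replicate block gave 9 genes higher and 1 lower, against 4.94% and 6.62% of all genes, losing Col9a1, Col28a1 and Col12a1. In limma the block gave 41 and 13 for limb against FB, against 6529 and 4391 of all 27599 regions. For DFL against PFL it gave 3 and 3, against 1018 and 886. It lost the call at the Col26a1 intron (limma adjusted p = 0.0538) and changed no other call of a named region in limma. Chosen after seeing the data, counts by groups that do not overlap gave 17 higher and 4 lower in wt alone (11.2% and 12.8% of all genes), 14 and 2 in 542 alone (9.21% and 13.2%), and 16 to 18 higher and 3 lower leaving out a replicate (8.92% to 9.18% and 11.5% to 12.2%), where permutation tests cannot pass the threshold (smallest p 0.0667, and 0.25 for 542 against wt).

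For DFL against PFL the genes higher and lower were 2 and 1 with all deposited regions (2.83% and 1.72% of all genes). With the 20000 strongest they were 1 and 1 (1.39% and 1.12%), and with a window of 50 kb 1 was higher (2.8%). The counts were 4 and 8 in wt alone (8.58% and 9.36% of all genes), 3 and 10 in 542 alone (9.55% and 9.99%), and 2 to 4 and 10 leaving out a replicate (7.88% to 8.06% and 8.20% to 8.63%).

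Regions in DFL, PFL, limb and FB alone numbered 13, 22, 56 and 36 with all deposited regions (1.39%, 1.21%, 3.81% and 6.38% of all consensus regions), 2, 3, 12 and 3 with the 20000 strongest (1.81%, 1.34%, 3.79% and 7.60%), and 20, 32, 51 and 25 in wt alone (5.11%, 5.33%, 9.47% and 15.3%). In 542 alone DFL and PFL had 18 and 37 (5.42% and 5.88%). Leaving out a replicate gave 14 to 18, 23 to 30, 42 to 43 and 25 to 26 (4.28% to 4.45%, 4.30% to 4.59%, 7.45% to 7.48% and 13.2% to 13.7%). The share of all deposited regions was 0.3997% in DFL and 0.3173% in FB, against 0.415% and 0.2965% of the 50000 strongest.

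In limma, no centring gave 27 higher and 31 lower for limb against FB, against 3638 and 10838 of all 27599 regions. It gave 5 higher for DFL against PFL, against 1458 of all regions. Regions called in at least 4 libraries, with missing values set to a floor, gave 253 and 116 of 471 collagen regions for limb against FB, 47 and 85 for DFL against PFL, and 3 and 10 for 542 against wt, against 38.8% and 38.5%, 12.7% and 12.2%, and 0.740% and 1.20% of all regions. Means over summits gave 27 higher for limb against FB, against 3931 of all 27599 regions. For DFL against PFL they gave 0 higher and 1 lower (17 regions of either direction at an unadjusted p under 0.05), against 298 and 202. Leaving out a replicate gave 23 to 28 higher and 6 to 9 lower for limb against FB, against 3175 to 3595 and 1871 to 2123 of all 27599 regions. For DFL against PFL it gave 0 of either (8 to 17 at an unadjusted p under 0.05), against 0 to 21 and 0 to 6 of all regions. Weaker regions were not listed where depth was low, so absence from a list is not absence of opening.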
